A study of Mus musculus with 24 samples.

Results

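Teddm3, Cyp3a13, Chit1 and Fam81a are 4 genes whose transcripts were higher in Dsg1-null (KO) skin than in wild-type (WT) or heterozygous (HET) skin of E18.5 mouse embryos, shortly before birth. They were chosen by their read counts in KO columns against WT and HET columns, so their KO values below describe them and are not tested. All 4 were among the 54087 gene symbols of the read count table, and all 4 were among the 17094 genes with enough counts to be fitted. Dorsal skin was flash frozen and poly(A) RNA was sequenced in 24 libraries, 8 per genotype. WT embryos carry the complete desmoglein 1 gene cluster, HET embryos lack it on 1 chromosome (Dsg1+/-), and KO embryos lack it on both (Dsg1-/-). The deletion spans Dsg1c, Dsg1a and Dsg1b and was made with CRISPR/Cas9 in C57BL/6J zygotes. The line goes back to 1 founder that was then backcrossed, and embryos of both sexes were used. All groups share the C57BL/6 background, received no treatment, and lack or keep the cluster in every cell, not only in keratinocytes. Libraries that share the number in their title and a genotype were summed, which gave 15 columns with 5 replicates per genotype.

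Desmoglein 1 is a cadherin of the desmosome, a junction that holds the cells of the epidermis together, and is found mainly in the upper layers. Desmoglein 3 (Dsg3), its relative in the lower layers, and the stress keratins Krt6a, Krt6b, Krt16 and Krt17, which wounded or inflamed epidermis is known to switch on, served as points of comparison. The 4 genes themselves have no shared role that is known. Cyp3a13 encodes a cytochrome P450 of the CYP3A family, enzymes of the endoplasmic reticulum that oxidise steroids, drugs and other foreign compounds and that are best known from liver and gut. Chit1 encodes chitotriosidase, a secreted enzyme that cleaves chitin and is, in humans, a known product of activated macrophages. Teddm3 belongs to a small family of transmembrane proteins first described in the epididymis, and Fam81a encodes a coiled-coil protein known from synapses in brain.

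The bases just upstream of the 4 genes are shown because 2 of the 4 windows, those of Cyp3a13 and Chit1, hold a match to the AP-1 motif and the other 2 do not. AP-1 factors are the Fos and Jun dimers that act in keratinocyte differentiation and stress. Each window holds the 250 bases before the annotated transcript start, 5′ to 3′ on the strand of the gene, from RefSeq on GRCm38.p6. The windows lie at chr5:137921620-137921869 (minus strand) for Cyp3a13, chr1:134110992-134111241 (plus strand) for Chit1, chr16:21153945-21154194 (minus strand) for Teddm3 and chr9:70141558-70141807 (minus strand) for Fam81a. Capitals mark the AP-1 match.
Cyp3a13: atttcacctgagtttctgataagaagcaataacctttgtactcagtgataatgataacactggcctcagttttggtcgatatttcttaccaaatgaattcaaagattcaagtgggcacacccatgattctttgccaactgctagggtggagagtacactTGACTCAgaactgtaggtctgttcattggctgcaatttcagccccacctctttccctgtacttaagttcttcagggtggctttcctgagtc
Chit1: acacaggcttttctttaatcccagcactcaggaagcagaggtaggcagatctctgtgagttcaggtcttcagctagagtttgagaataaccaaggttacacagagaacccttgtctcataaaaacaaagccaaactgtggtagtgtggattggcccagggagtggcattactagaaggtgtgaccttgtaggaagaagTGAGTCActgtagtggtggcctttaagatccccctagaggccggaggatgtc
Teddm3: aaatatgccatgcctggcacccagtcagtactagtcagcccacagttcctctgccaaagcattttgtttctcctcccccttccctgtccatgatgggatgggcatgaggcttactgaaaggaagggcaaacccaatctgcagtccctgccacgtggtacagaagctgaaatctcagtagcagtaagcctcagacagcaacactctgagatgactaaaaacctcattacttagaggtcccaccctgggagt
Fam81a: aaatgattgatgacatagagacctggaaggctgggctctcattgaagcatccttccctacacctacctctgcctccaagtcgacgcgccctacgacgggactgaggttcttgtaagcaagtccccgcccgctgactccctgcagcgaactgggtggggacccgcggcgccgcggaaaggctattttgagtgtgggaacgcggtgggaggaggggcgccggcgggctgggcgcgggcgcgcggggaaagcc

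The AP-1 motif was searched as TGANTCA, which reads the same on both strands. Counted back from the transcript start, the match TGACTCA of Cyp3a13 lay at -91 to -85 and the match TGAGTCA of Chit1 at -52 to -46. In Cyp3a13, 1 further match ran across the transcript start itself and is outside the window. Of 14365 such windows of 11248 tested genes, 5.03% held the motif, and of all 32851 windows 6.75% did. The CCAAT box, searched as CCAAT on both strands, was found in Teddm3, Cyp3a13 and Chit1, and in 34.6% of the windows of tested genes. Neither TATAAA (7.24% of those windows) nor the antioxidant response element TGACNNNGC (11.7%) was found in any of the 4 windows on either strand. The window of Fam81a was rich in G and C (64.4%), whereas those of Teddm3 (50.8%), Chit1 (48%) and Cyp3a13 (42.8%) were below the median of tested genes (59.2%). The motifs were chosen with earlier results of these data known, so matches beside these shares are not a test of enrichment. A match is a string of letters, and binding was not measured.

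Depth ran from 8.98 M to 20.96 M counts per library (M, mega) and in the summed columns from 15.3 M to 33.7 M. Counts of the 3 deleted genes averaged 806 ± 112 CPM (counts scaled to a library of 1 M) in WT, 422 ± 51.5 in HET and 0.548 ± 0.343 in KO (SD, n = 5 each), in the order of the genotype labels. Keratinocyte markers were abundant in every column, at 64121 to 116970 CPM in sum over 12 genes. Of 9 title numbers with 2 libraries, 8 held libraries that differed little (chi-square per degree of freedom 1.59 to 1.86), and number 35 (WT replicate 2) stood apart with 15.6. Its libraries also disagreed on sex: 1 held 338 CPM of Y-linked genes and 0.275 of Xist, the other 0.157 and 574. Without that column the log2 fold changes KO minus WT were 1.59 for Teddm3, 1.31 for Cyp3a13, 1.08 for Chit1 and 0.42 for Fam81a. Of the 4 genes only Teddm3 was still called there, beside 20 of 17025 tested genes in either direction. With the 2 libraries of number 35 as separate columns, Teddm3, Cyp3a13 and Chit1 were called against WT, beside 138 of 16648 tested genes. The labels do not state that columns are separate embryos, so p-values measure the spread between these columns.

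Of the 4 genes, Teddm3 had the largest ratio of KO to WT. In WT it stood at 1.99, 2.12, 3.003, 1.75 and 2.22 CPM in replicates 1 to 5. HET replicates 1 to 5 held 1.76, 2.72, 3.53, 1.82 and 2.44 CPM, and KO replicates 6.82, 7.01, 4.94, 9.66 and 5.52 CPM. Every KO column was above every WT and HET column, with a gap between the highest HET column (3.53) and the lowest KO column (4.94). The means were 2.21 ± 0.475 CPM in WT, 2.45 ± 0.727 in HET and 6.79 ± 1.83 in KO (SD, n = 5 each). The log2 fold change was 1.61 (SE 0.22) against WT and 1.46 (SE 0.22) against HET. A band of 2 SE around the former spans a fold of 2.24 to 4.16. These are bulk samples, in which more cells with the transcript and more transcript per cell cannot be told apart.

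Cyp3a13 was also a low transcript that was higher in KO, but its groups touched. WT replicates 1 to 5 held 3.69, 3.22, 2.37, 2.66 and 3.53 CPM. HET replicates held 2.99, 2.604, 2.58, 4.29 and 2.44 CPM, and KO replicates 6.40, 11.4, 3.70, 9.05 and 7.19 CPM. KO replicate 3 was level with the highest WT column and below HET replicate 4, whereas the other 4 KO columns were above all WT and HET columns. KO replicate 3 rested on 87 counts, for which the exact 95% Poisson interval is 2.97 to 4.57 CPM, and that of HET replicate 4, with 66 counts, is 3.32 to 5.46 CPM. Such intervals cover counting error only. The means were 3.09 ± 0.563 CPM in WT, 2.98 ± 0.762 in HET and 7.55 ± 2.90 in KO (SD, n = 5 each), with log2 fold changes of 1.29 (SE 0.25) against WT and 1.35 (SE 0.25) against HET.

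Chit1 had the widest spread among KO columns. WT replicates 1 to 5 held 20.9, 18.1, 12.7, 20.5 and 15.7 CPM. HET replicates held 15.2, 18.8, 19.5, 18.48 and 15.1 CPM, and KO replicates 28.5, 63.8, 21.5, 33.8 and 36.2 CPM. KO replicate 2 was far above the other KO columns, and KO replicate 3 was just above the highest WT column (20.9), with overlapping counting intervals of 19.7 to 23.5 and 18.9 to 22.9 CPM. The means were 17.6 ± 3.42 CPM in WT, 17.4 ± 2.10 in HET and 36.8 ± 16.2 in KO (SD, n = 5 each). The log2 fold change was 1.07 (SE 0.23) against WT and 1.08 (SE 0.23) against HET. Without KO replicate 2 these were 0.77 and 0.78, under the fold limit for a call.

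Fam81a had the smallest shift and the least spread. WT replicates 1 to 5 held 20.7, 17.4, 19.5, 17.0 and 20.1 CPM. HET replicates held 15.4, 18.9, 18.1, 20.04 and 18.8 CPM, and KO replicates 28.3, 26.9, 24.4, 23.9 and 26.04 CPM. All KO columns lay above all WT and HET columns, and the KO columns varied by 6.86% of their mean (coefficient of variation), against 26.9% for Teddm3, 38.3% for Cyp3a13 and 43.9% for Chit1. The means were 18.9 ± 1.63 CPM in WT, 18.3 ± 1.73 in HET and 25.9 ± 1.78 in KO (SD, n = 5 each). The log2 fold change was 0.45 (SE 0.089) against WT and 0.51 (SE 0.089) against HET, a shift of less than a doubling.

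**Figure D1:**
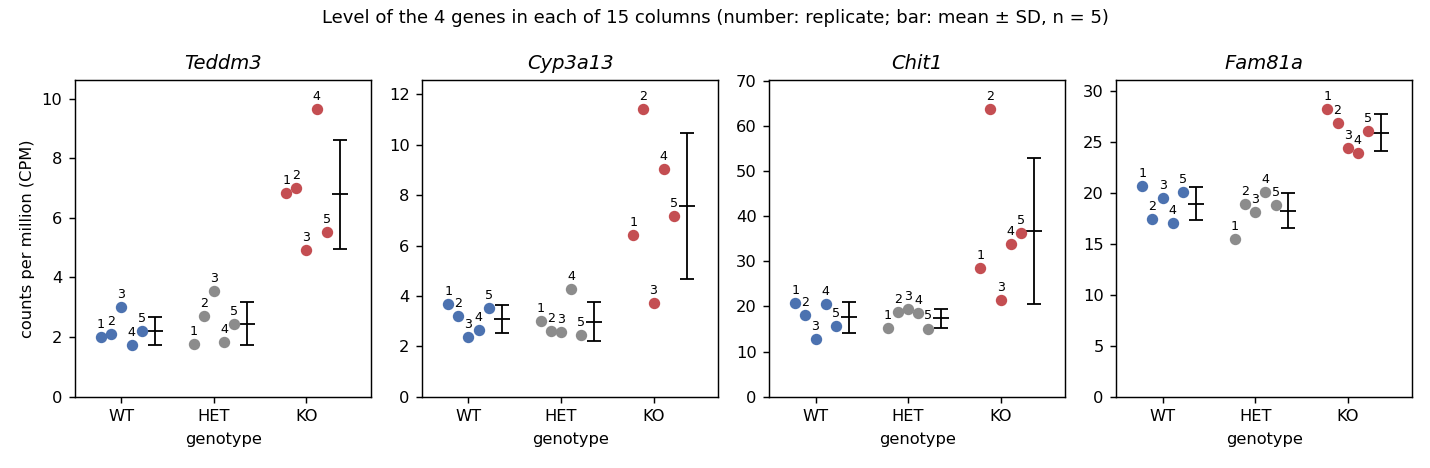
Level in CPM (vertical axes from 0) of the 4 genes in each WT, HET and KO column. Points are columns labelled by replicate number, and the bars give the mean and SD of 5 columns. KO replicate 3 sits near the WT columns for Cyp3a13 (3.70 CPM) and Chit1 (21.5 CPM), whereas all KO columns of Teddm3 and Fam81a are clear of the other groups.

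To be called, a gene had to differ by at least 1 on the log2 scale with an adjusted p no higher than 0.1. In KO against WT 3 of the 4 genes were called, Fam81a being under the fold limit, where 0.135% of all tested genes were called higher. In KO against HET the same 3 genes were called, beside 0.0819% of all tested genes. All KO columns were above all WT columns for 4 of the 4 genes, as for 1.61% of tested genes, and above all HET columns for 3 of the 4, as for 0.954%. They were above all WT and HET columns together for 3 of the 4, as for 0.322% of tested genes. These counts follow from how the genes were chosen and say nothing more. Chit1 was no longer called against WT or HET without the filter on low counts or with a Y-linked covariate. The same held with limma-voom (0.98 on the log2 scale in both) and with only the 2 genotypes compared. Against HET it was also not called with a filter at a mean of 50 counts. Leaving out WT replicate 1, 2, 3 or 5, HET replicate 1, or KO replicate 1, 2 or 4 also removed its call against WT. Among such fits, its call against HET was kept only without WT or HET replicate 4, or KO replicate 3 or 5. Within the 9 libraries of the first title format (series 1) the log2 fold changes against WT were 1.39 for Teddm3, 1.46 for Cyp3a13, 1.14 for Chit1 and 0.49 for Fam81a. There 0 of the 4 were called, beside 3 of 16166 tested genes in either direction. Within the 15 libraries of the second format (series 2), which repeat all 9 numbers, the log2 fold changes were 1.66, 1.23, 1.07 and 0.48 in the same order.

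Levels between the genes were compared per length, as CPM per kilobase of exon. In WT, Chit1 was the highest at 9.68, followed by Fam81a at 4.31, Teddm3 at 1.64 and Cyp3a13 at 1.05 CPM per kilobase. In KO, Chit1 stood at 20.3, Fam81a at 5.89, Teddm3 at 5.04 and Cyp3a13 at 2.56. Among 14597 tested genes with a length, Teddm3 was at percentile 25.2 in WT and 47.9 in KO, and Chit1 at percentile 66.7 in WT and 82.9 in KO. Cyp3a13 was at percentile 19.3 in WT and 32.4 in KO, and Fam81a at 44.4 and 52.3. None of the 4 genes overlaps a gene of the opposite strand in the annotation (GENCODE vM21). Cyp3a13 overlaps a processed pseudogene, Gm15502, on its own strand, so reads there could belong to either.

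The 9 title numbers with 2 libraries show how well each level repeated between libraries of the same number. Number 35 (WT replicate 2) is counted among them, although its 2 libraries disagreed on sex and may not come from the same embryo. For each gene and number, the observed split of counts between the 2 libraries was given an exact 95% binomial interval. Taken over the 4 genes and 9 numbers, the split expected from library depth lay within that interval in 32 of 36 cases. The larger of the 2 CPM values exceeded the smaller by a median factor of 1.09 for Chit1, 1.07 for Cyp3a13 and 1.07 for Fam81a, but 1.34 for Teddm3. The largest disagreement was Teddm3 in HET replicate 1, with 1.15 CPM (22 counts) in series 1 and 2.78 CPM (32 counts) in series 2. In the KO column that was lowest for 3 of the genes, replicate 3, Chit1 was at 19.9 CPM in series 1 and 23.96 in series 2, Cyp3a13 at 3.74 and 3.63, and Teddm3 at 5.68 and 3.74. In KO replicate 2, the highest column for Chit1 and Cyp3a13, Chit1 was at 63.0 and 64.8 CPM and Cyp3a13 at 11.6 and 11.1. The expected split lay outside the interval in KO replicate 3 for Teddm3, where the libraries differed by 1.52 times, and for Chit1, where they differed by 1.21 times. It also lay outside for Teddm3 in HET replicate 1 and for Fam81a in HET replicate 3 (16.5 and 21.2 CPM, 1.29 times). KO replicates 4 and 5, among them the highest Teddm3 column, had 1 library each and were not repeated.

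**Figure D2:**
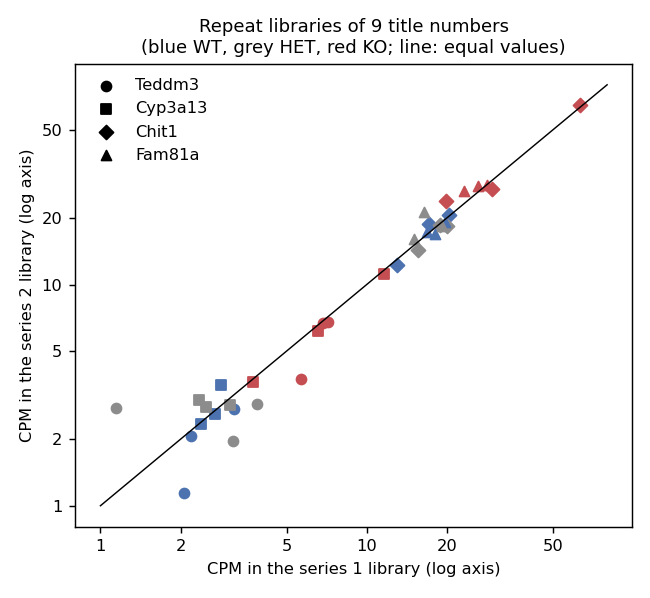
CPM of the 4 genes in the series 1 library (horizontal, log axis) and the series 2 library (vertical, log axis) of 9 title numbers. Number 35 (WT replicate 2), whose libraries disagreed on sex, is included. Each point is 1 gene in 1 number, shapes are genes, colours are genotypes and the line marks equal values. Most points lie close to the line, and the low values of Teddm3 scatter most, up to 2.42 times.

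The HET columns, which carry a single intact cluster, were compared with WT next. For none of the 4 genes did a difference between HET and WT pass the edgeR quasi-likelihood test. The log2 fold changes were 0.15 (SE 0.23) for Teddm3, -0.058 (SE 0.25) for Cyp3a13, -0.012 (SE 0.23) for Chit1 and -0.054 (SE 0.089) for Fam81a. Unadjusted p-values were 0.514, 0.823, 0.958 and 0.553 in that order, and each adjusted p was 1.00 over all genes. No gene of the table was called here by edgeR, DESeq2 or limma-voom (0%), and 1.58% of genes had an unadjusted p below 0.05. WT and HET columns also entered the comparisons by which the genes were chosen. Bands of 2 SE allow a HET to WT fold of 0.811 to 1.52 for Teddm3, 0.676 to 1.37 for Cyp3a13, 0.722 to 1.36 for Chit1 and 0.852 to 1.09 for Fam81a. A modest rise of Teddm3, Cyp3a13 or Chit1 in HET would therefore not have been seen.

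Expressed as a share of the log2 shift from WT to KO, HET stood at 9.41% for Teddm3, -4.47% for Cyp3a13, -1.15% for Chit1 and -11.9% for Fam81a. For Dsg3 the share was 40.6%. Column by column, 5 of 5 HET columns lay within the WT range for Chit1, and 4 of 5 for each of the other 3 genes. The exceptions were HET replicate 3 for Teddm3, between the WT and KO columns, HET replicate 4 for Cyp3a13, above the lowest KO column, and HET replicate 1 for Fam81a, below all WT columns. The level of Dsg3 was 24.6 ± 3.27 CPM in WT, 47.4 ± 11.8 in HET and 123 ± 31.7 in KO (SD, n = 5 each), and all 5 HET columns (37.2 to 64.9 CPM) lay between the WT columns (19.3 to 28.1) and the KO columns (82.4 to 157). Its HET minus WT log2 fold change was 0.94 (SE 0.19), with an edgeR p of 0.000131 before and 1.00 after adjustment over all genes. The adjusted p was 0.00728 with DESeq2, 0.0553 with limma-voom and 0.00997 with 24 separate libraries. Whether its HET position differs from those of the 4 genes was not tested. Dsg3 lies on chromosome 18, as do the deleted Dsg1 genes. Teddm3, Cyp3a13, Chit1 and Fam81a lie on chromosomes 16, 5, 1 and 9. For Dsg4, the paper proposes that the deletion may bring an enhancer closer. A local effect of this kind on Dsg3 was not tested.

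**Figure D3:**
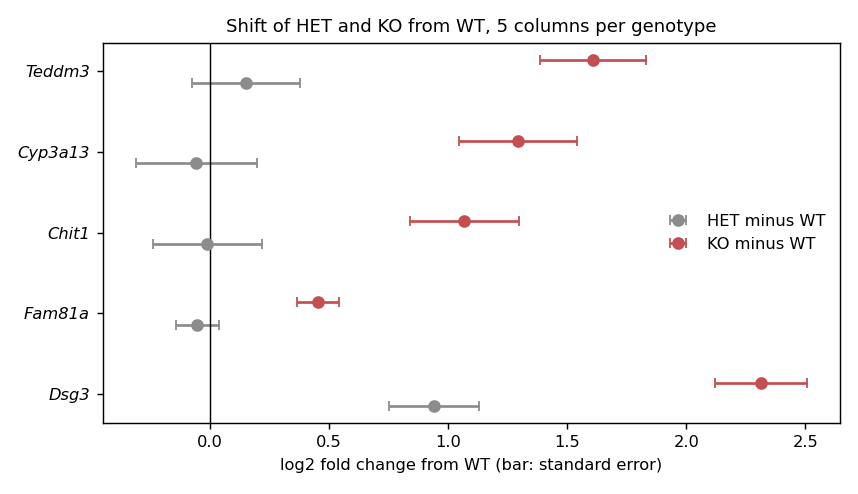
Log2 fold change from WT (horizontal axis) of HET (grey) and KO (red) for the 4 genes and Dsg3, with bars of 1 SE, from 5 columns per genotype. HET values of the 4 genes lie between -0.058 and 0.15, and that of Dsg3 at 0.94.

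The KO columns were then set side by side with Dsg3 and the stress keratins. Krt16 averaged 24.9 CPM in WT and was at 440, 334, 54.5, 420 and 176 CPM in KO replicates 1 to 5 (log2 fold change 3.52, SE 0.60, edgeR adjusted p = 0.0333, and 0.121 without WT replicate 2). Krt6b was at 67.6, 26.7, 3.11, 31.4 and 14.3 CPM in the KO replicates (2.71, SE 1.03, adjusted p = 0.188), and Krt6a at 7.03, 3.02, 1.11, 53.3 and 2.29 CPM (3.13, SE 0.96, adjusted p = 0.131). The value of Krt6a was 1.17 without KO replicate 4. With DESeq2 the adjusted p was 0.0189 for Krt6a and 0.065 for Krt6b, and with 24 separate libraries it was 0.0138 and 0.0258. Krt17, a keratin of hair follicles as well as of stressed epidermis, was at 615 to 757 CPM in KO (-0.11, SE 0.14, adjusted p = 0.683). Krt6a overlaps an antisense gene and the use of strand in counting is not given, so its reads could in part be those of its partner. KO replicate 3 was the lowest KO column for Teddm3, Cyp3a13 and Chit1, and also for Krt6a, Krt6b, Krt16 and Krt17. In that column Cyp3a13 was at 1.20 times, Chit1 at 1.22 times and Teddm3 at 2.23 times the WT mean, while Krt6a and Krt6b were at 0.733 and 0.717 times theirs. Dsg3 was still 3.92 times its WT mean there, and its lowest KO column was replicate 5. The highest KO column was replicate 2 for Cyp3a13, Chit1 and Dsg3, replicate 4 for Teddm3 and Krt6a, and replicate 1 for Fam81a, Krt16, Krt6b and Krt17.

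**Figure D4:**
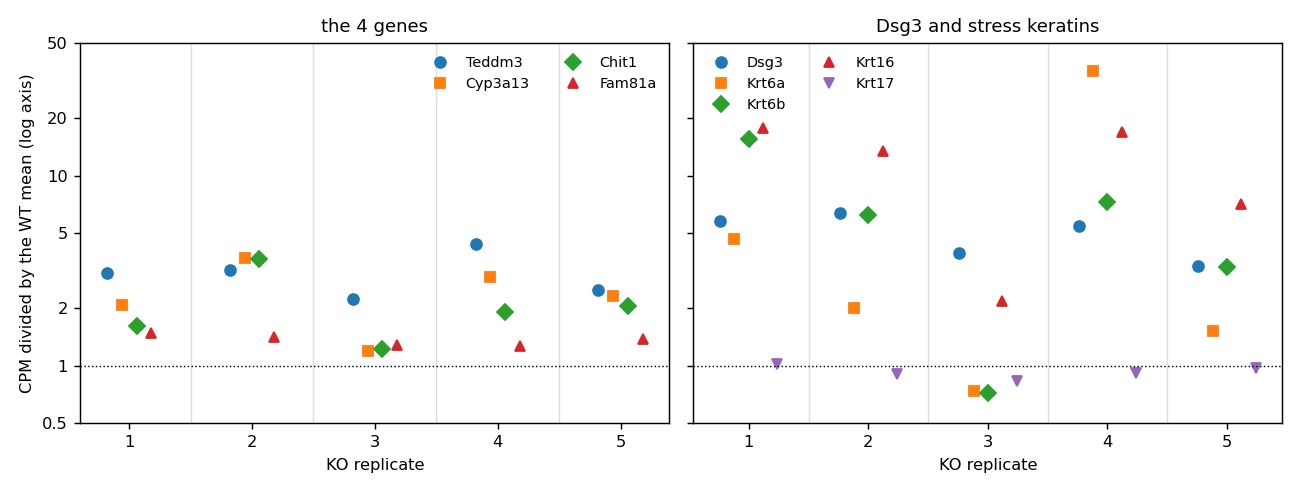
CPM of each gene in the KO replicates divided by its WT mean (vertical, log axis, dotted line at 1), for the 4 genes (left) and for Dsg3 and the stress keratins (right). Each point is 1 gene in 1 KO column, and points are shifted sideways only for legibility. In replicate 3, Cyp3a13 and Chit1 are near the WT mean (1.20 and 1.22 times) and Krt6a and Krt6b are below it, whereas Dsg3 is at 3.92 times.

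Whether the 4 genes rose and fell with Dsg3, with the stress keratins or with each other among columns of the same genotype was tested on deviations of log2 CPM from the genotype mean, which leaves out the differences that picked the genes. There were 26 relations over 15 columns, tested with a two-sided permutation test (100000 shuffles within genotypes). No relation passed at an adjusted p of 0.1, and 2 had an unadjusted p below 0.05. The strongest was that of Cyp3a13 with Chit1 (Pearson's r = 0.742, permutation p = 0.0203, adjusted p = 0.431, Spearman's rho = 0.511, p = 0.0797). It fell to r = 0.375 without KO replicates 2 and 3, the 2 columns farthest from the median, and thus rests largely on them. Teddm3 had r = 0.591 with Krt6a (permutation p = 0.0332, adjusted p = 0.431, rho = 0.507, p = 0.0792), which fell to 0.267 without KO replicates 3 and 4. Teddm3 with Krt16 had r = 0.569 (permutation p = 0.0591, adjusted p = 0.512, rho = 0.6, p = 0.0345), and 0.502 without HET replicate 2 and KO replicate 3. With Dsg3, r was 0.47 for Cyp3a13 (permutation p = 0.156, adjusted p = 0.754), 0.313 for Chit1 (p = 0.4, adjusted p = 0.843), 0.131 for Fam81a (p = 0.663, adjusted p = 0.881) and 0.0834 for Teddm3 (p = 0.791, adjusted p = 0.889). Spearman's rho for these was 0.357, 0.146, 0.239 and 0.146, with permutation p-values of 0.239, 0.636, 0.407 and 0.646. Without HET replicate 4 and KO replicate 5 the 4 values of r were 0.437, 0.441, -0.0455 and 0.191. Among the other pairs of the 4 genes r ran from 0.0737 (Teddm3 with Cyp3a13) to 0.254 (Cyp3a13 with Fam81a). These r pool the 3 genotypes. In WT, HET and KO alone (n = 5 each), r with Dsg3 was -0.653, 0.8 and 0.587 for Cyp3a13 and -0.265, 0.372 and 0.488 for Chit1. It was -0.789, 0.454 and 0.351 for Fam81a and 0.0162, -0.515 and 0.684 for Teddm3. For Teddm3 it was 0.366, 0.163 and 0.951 with Krt6a and 0.968, 0.167 and 0.817 with Krt16. Single genotypes were not tested. A joint movement of the 4 genes with Dsg3 or the stress keratins, pooled over genotypes, was not shown by 15 columns.

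**Figure D5:**
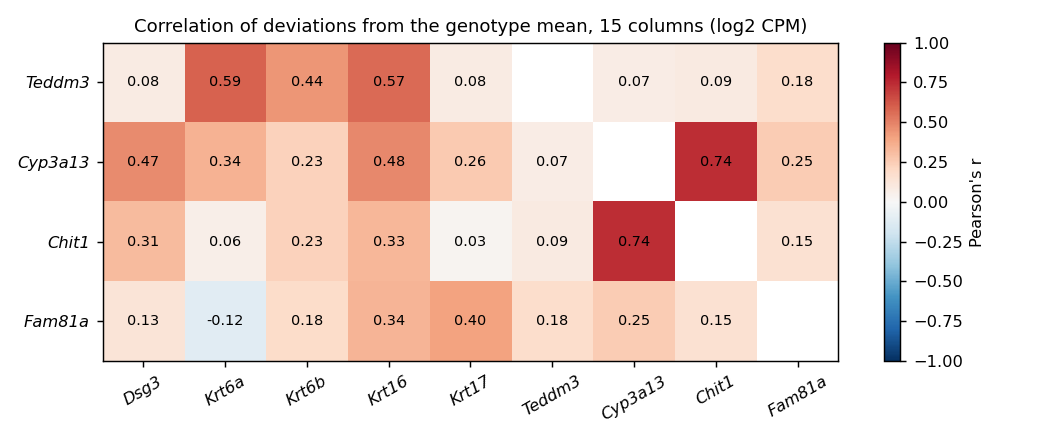
Pearson's r of deviations from the genotype mean (log2 CPM, 15 columns) of each of the 4 genes (rows) with Dsg3, the stress keratins and each other (columns of the grid), coloured from -1 (blue) to 1 (red). The darkest cells are Cyp3a13 with Chit1 (0.742), Teddm3 with Krt6a (0.591) and Teddm3 with Krt16 (0.569), none of which passed adjustment over 26 relations.

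Genes whose log2 CPM followed each of the 4 most closely over all 15 columns are given as a description, since differences between genotypes enter these correlations. For Teddm3 they were Pinlyp (r = 0.939), Sprr1b (0.923), a protein of the cornified envelope, and Krt16 (0.908). Pinlyp went from 8.78 ± 1.16 CPM in WT to 16.01 ± 3.61 in KO, and Sprr1b from 22.4 ± 13.2 to 179 ± 70.1 (SD, n = 5 each). For Cyp3a13 they were Dusp16 (0.944), a phosphatase of MAP kinases, RP23-419K14.8 (0.929) and Gjb2 (0.925), a connexin of gap junctions that was also among the 3 for Fam81a (0.872). Gjb2 went from 124 ± 21.9 CPM in WT to 288 ± 79.6 in KO, and was at 123 ± 21.6 in HET. For Chit1 they were Flg (0.903), the filaggrin of the granular layer, the chemokine Cxcl16 (0.899) and Nipal3 (0.897). Cxcl16 went from 6.24 ± 0.8 CPM in WT to 11.1 ± 3.37 in KO. For Fam81a, Tmem57 (0.898) and Atxn7l3b (0.886) came before Gjb2, with KO minus WT log2 fold changes of only 0.21 and 0.13.

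Most relatives of the 4 genes were at or near 0 counts in this skin. Of 8 other CYP3A genes none reached the level for testing, and 5 of them, Cyp3a25, Cyp3a41a, Cyp3a41b, Cyp3a44 and Cyp3a59, had 0 counts in all libraries. Cyp3a13 was the only CYP3A gene with enough counts to be tested. Nr1i2 and Nr1i3, the receptors known to induce CYP3A genes in liver, had 8 and 23 counts over all libraries. Of 23 genes of xenobiotic metabolism 19 were tested and none was called in KO against WT by edgeR, where 0.322% of all tested genes were called in either direction, so that a count of 0 says nothing about the list. They had a median log2 fold change of 0.16 against -0.0095 over all tested genes, and 13 of the 19 values were above 0. Among them Por, the reductase that feeds electrons to microsomal P450 enzymes, was at 106 ± 9.74 CPM in WT and 137 ± 26.2 in KO (0.36, adjusted p = 0.137).

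Of 8 other chitinase family genes 4 were tested and none was called, too few to be read against a share of 0.322%. Chil1, a chitinase-like lectin, was at 10.3 ± 3.08 CPM in WT, 12.1 ± 2.98 in HET and 20.9 ± 13.9 in KO (log2 fold change 1.02, edgeR adjusted p = 0.198). Chil3, with 198 counts over all libraries, was at 0.350 ± 0.159, 0.477 ± 0.336 and 0.725 ± 0.467 CPM in that order (1.01, edgeR adjusted p = 0.267). Ctbs, a lysosomal chitobiase, was at 11.8 ± 1.13 CPM in WT and 10.3 ± 1.20 in KO (-0.19, adjusted p = 0.318), and Chid1 at 44.5 ± 1.98 and 43.6 ± 5.16 (-0.031, adjusted p = 0.868). Of the other TEDDM genes, Teddm1a had 0 counts, Teddm1b had 5 over all libraries, and Teddm2 was at 0.824 ± 0.308 CPM in WT and 0.583 ± 0.155 in KO (-0.51, adjusted p = 0.31). Fam81b, the partner of Fam81a, had 14 counts in all and was not tested.

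Markers of cell types in which these genes, or for Chit1 its human counterpart, are known were read beside them. For Chit1, 16 macrophage markers summed to 997 to 1205 CPM in WT, 961 to 1225 in HET and 898 to 1378 in KO, with none at 0 and none of 16 called in edgeR (median log2 fold change -0.064). The sums of the 3 genotypes overlapped. For neutrophils, 11 marker genes summed to 14.9 to 29.1 CPM in WT, 15.5 to 52.1 in HET and 22.6 to 104 in KO. None was at 0 in all columns of a genotype. S100a8 and S100a9 were the 2 highest of the 11 in each genotype. Their means were 4.45 and 5.71 CPM in WT and 14.62 and 19.03 in KO, against mean sums of 19.68 and 51.49. The paper counts S100A8 among keratinocyte genes raised in patients with Dsg1 mutations. It also reports S100A9 in epidermal nuclei of patients with psoriasis. Which cells gave these 2 transcripts here was not tested. Of 9 neutrophil markers tested, 8 had a log2 fold change above 0 (median 1.22). Of these 1 was called, the chemokine receptor Cxcr2 (2.31, edgeR adjusted p = 0.0891), beside 0.322% of all tested genes called in either direction. With a filter at a mean of 50 counts 0 of the neutrophil markers were called, and Cxcr2, with 275 counts over all libraries, does not reach that filter. Adipocyte markers summed to 335 to 1012 CPM in WT, 550 to 3707 in HET and 489 to 4941 in KO, with 6 of 6 values KO minus WT above 0 (median 1.49) and none called. Erythroid markers summed to 1652 to 5156 CPM in WT, 1854 to 6074 in HET and 3107 to 9049 in KO, with 8 of 8 values above 0 (median 0.56) and none called. The part of these cell types, and of macrophages, in the levels of the 4 genes was not tested. For Fam81a, 12 neuron and Schwann cell markers summed to 130 to 153 CPM in WT, 132 to 149 in HET and 123 to 146 in KO, with none of 10 tested called. For Teddm3, 6 epididymis markers summed to under 0.9 CPM in every column, and Lcn5, Defb20 and Adam7 were at 0. For Cyp3a13, 6 liver markers summed to 3.35 to 32.3 CPM in WT, 7.42 to 179 in HET and 1.57 to 21.3 in KO, so the KO columns were not the higher ones. The 12 keratinocyte markers summed to 65005 to 89531 CPM in WT, 64121 to 84368 in HET and 79289 to 116970 in KO. Of their log2 fold changes, 11 of 12 were above 0 in KO against WT (median 0.20) and 11 of 12 against HET (median 0.26). None was called, and 2 passed the adjusted p under the fold limit in KO against WT, Ivl (0.76, edgeR adjusted p = 0.0231) and Dsc1 (0.64, adjusted p = 0.0915). The part of keratinocytes in the levels of the 4 genes was not tested either.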

How the data were processed

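The deposited table holds raw read counts per gene symbol for 24 poly(A) RNA-Seq libraries, made by the authors. The submitters' processing notes name STAR, HTSeq and the build hg19, which is a human build although the symbols are those of mouse. Versions, annotation and use of strand are not given in the sources used here. Libraries of the same title number and genotype were summed to 15 columns, and replicates 1 to 5 follow ascending title numbers. The filterByExpr function of edgeR 4.0.16 (R 4.3.3) kept 17094 of 54087 symbols, with 99.9% of all counts. After TMM scaling they were fitted with the quasi-likelihood test over all 3 genotypes without covariates, with Benjamini-Hochberg adjustment over all genes, and called with the thresholds of the study (adjusted p of 0.1, absolute log2 fold change of 1). CPM use TMM-adjusted library sizes, and log2 CPM a prior count of 2. Columns held 15.3 M to 33.7 M counts, and counts of the 4 genes per column ran from 28 to 1731.

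The genes, lists and motifs were chosen with earlier results of these data known. Named besides the 4 genes are relatives with a mean of 1 CPM or more in a genotype, list genes that were called, Dsg3, the stress keratins, and the 3 genes most correlated with each. Por, Teddm2, Chil3, S100a8, S100a9, Ivl and Dsc1 were added to these after their values were seen. So were the relatives with few or 0 counts and the HET minus WT values of Dsg3. Lists of fibroblast, skeletal muscle, melanocyte, endothelial and hair follicle markers had no called gene KO minus WT, with median log2 fold changes of -0.24, -0.096, 0.22, 0.051 and 0.13. Alternatives were RLE and total count scaling, other filters, DESeq2 1.42.0, limma-voom (limma 3.58.1) with title number as a block, each title series alone, separate libraries, a Y-linked covariate, only the 2 genotypes compared, and each replicate left out. Number 35 was also fitted as 2 columns. Exon lengths are from GENCODE vM21 on GRCm38, which held 28499 of the 54087 symbols (14597 of the tested genes), and upstream sequences were matched by symbol for all 4 genes. The fit was tested on simulated data.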

Additional observations from a re-analysis of the deposited data

Results flagged for a closer look

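Within each genotype, the gap of the highest or lowest of 5 columns to its neighbour was divided by the range of the columns for the 4 genes, Dsg3 and the stress keratins, and set against a critical value of 0.71. Of 27 such groups 5 passed it, where chance gives about 1 in 20. None of the 5 was a group of Teddm3, Cyp3a13, Chit1, Fam81a or Dsg3. HET replicate 2 stood apart from the other HET columns for Krt6a (0.805, at 2.98 CPM), Krt6b (0.932, at 43.9 CPM) and Krt16 (0.841, at 86.7 CPM). In that column the 4 genes were at 2.72 CPM (Teddm3), 2.604 CPM (Cyp3a13), 18.8 CPM (Chit1) and 18.9 CPM (Fam81a), each between the lowest and the highest of the other HET columns. KO replicate 4 stood apart for Krt6a (0.886, at 53.3 CPM), and WT replicate 3 for Krt6b (0.876, at 8.35 CPM).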

How the results depend on the processing

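No paired analysis was possible because the genotypes have no title number in common and the replicate numbers are names only. The KO minus WT and KO minus HET log2 fold changes of the 4 genes stayed above 0 and within 1 SD of the columns under all 27 alternatives, each member and comparison included. Leaving out 1 replicate gave KO minus WT values of 1.45 to 1.75 for Teddm3, 1.09 to 1.47 for Cyp3a13, 0.77 to 1.21 for Chit1 and 0.42 to 0.49 for Fam81a. How many of the 4 were called did depend on the setting. It was 3 against both WT and HET, fell to 0 and 0 in series 1 alone, to 1 and 0 with only the 2 genotypes compared in the fit, and ran from 1 to 3 in both comparisons when a replicate was left out. The low end against WT was without WT replicate 2 or 3, and against HET without HET replicate 1, 3 or 5 or KO replicate 1 or 4. In these leave-one-out fits with 1 call the gene called was Teddm3. Calls over all tested genes, in either direction, varied as well. The main fit called 55 against WT and 31 against HET of 17094. Series 1 alone called 3 of 16166 in each comparison. With only the 2 genotypes, 15 of 16444 were called against WT and 3 of 16420 against HET. With a replicate left out, 20 to 240 genes were called against WT and 10 to 113 against HET.

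HET minus WT values near 0 changed sign under some alternatives: Teddm3 to -0.018 and Chit1 to 0.0025 with limma-voom, Chit1 to 0.11 and Cyp3a13 to 0.012 in series 1 alone, Chit1 to 0.0037 with 24 separate libraries and Fam81a to 0.0039 in series 2 alone. With a replicate left out they ran from -0.016 to 0.29 for Teddm3, -0.21 to 0.013 for Cyp3a13, -0.11 to 0.056 for Chit1 and -0.091 to 0.0018 for Fam81a. The adjusted p stayed between 0.931 and 1.00. Of 26 relations between columns none reached an adjusted p of 0.1 in any alternative that was tested, the smallest being 0.121. Weak correlations changed sign: Teddm3 with Dsg3 was -0.044 with total count scaling, -0.36 in WT and HET columns only and -0.047 to 0.296 with a replicate left out. Teddm3 with Cyp3a13 was -0.014, -0.588 and -0.288 to 0.248 in these, and -0.321 without the 2 columns farthest from the median. Fam81a with Dsg3 was -0.0455 without such columns and -0.0547 to 0.279 with a replicate left out. Cyp3a13 with Chit1 ran from 0.35 to 0.798 over its 19 alternatives. The cause of these shifts was not tested. Depth limits Teddm3 and Cyp3a13 most, with as few as 28 and 51 counts in a column.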

Other observations

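By Y-linked genes and Xist, 3 KO columns were on the Y-linked side and 2 on that of Xist, as in HET. In WT 3 columns were on the side of Xist, 1 was on the Y-linked side and 1 held both. The ranges of the KO columns follow. Chit1 was at 21.5 to 63.8 CPM in the former and 28.5 to 36.2 CPM in the latter, Cyp3a13 at 3.70 to 11.4 and 6.40 to 7.19 CPM, Teddm3 at 4.94 to 9.66 and 5.52 to 6.82 CPM, and Fam81a at 23.9 to 26.9 and 26.04 to 28.3 CPM. The KO columns of the 2 sides overlapped for each of the 4 genes. In HET the Xist columns were above the Y-linked ones for Teddm3 (2.72 to 3.53 against 1.76 to 2.44 CPM). The same held for Chit1 (18.79 to 19.5 against 15.1 to 18.48 CPM), whereas the sides overlapped in HET for Cyp3a13 and Fam81a. In WT the 1 Y-linked column lay within the range of the Xist columns for each of the 4 genes. Differences between the sides were not tested.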
